A study of Mus musculus with 12 samples.

Results

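Wide regions are stretches of 800 bp or more at which FLAG-tagged Zscan4 was listed on mouse chromosomes 1 to 19. They were chosen by width alone, the end minus the start of each region in the deposited list. Of 4759 regions on these chromosomes, 413 met the limit (8.68%), and the whole list held 4973 regions. The other 4346 regions on chromosomes 1 to 19 are called narrower regions here. The cells were J1, a mouse embryonic stem cell line with the strain label 12910la. They carried the coding sequence of Zscan4c in a pCMV-FLAG vector (1000 ng, then 500 ug/ml G418 from 24 h for 10 days), and monoclonal cells were picked, so that the overexpressing cells descend from single cells. The study had 12 samples with 1 in each group, of which the FLAG immunoprecipitation from overexpressing cells gave the list. Histone mark and input libraries from wild-type and overexpressing cells were not analysed here.

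Zscan4c encodes a protein with a SCAN domain, through which such proteins pair, and zinc fingers that contact DNA. It is transcribed in the mouse embryo at the time of genome activation and in a small, changing fraction of embryonic stem cells, and it has been tied to the upkeep of telomere length. In chromatin immunoprecipitation a factor at a single short site usually leaves a region near the length of the sequenced fragments, which were about 250 bp here. A wider region is a longer stretch listed as 1 call. Whether narrow or broad calling was used is not stated, and broad calling can join stretches across weaker gaps.

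With 1 library there were no replicates. Values are counts and shares of regions, and the 95% Wilson and Newcombe intervals cover counting error only and treat regions as independent, which neighbouring regions are not. No p-value was computed. Sequencing depth is not given in the list, and a place without a region is not shown to be free of Zscan4.

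The DNA beside some wide regions is shown first, because long exact repeats were seen in it. RefSeq promoter windows (build GRCm38.p6, from 250 bases before to 50 bases after a start) were searched for a stretch of 50 or more bases that occurs more than once in the window without overlap. This search was chosen after the first such window was seen, and that window was not left out of the counts, which are a description only. On chromosomes 1 to 17 and 19, 51 of 31396 windows held such a repeat (0.162%). Of the 10 windows whose edge lay within 1 kb of a wide region, 3 held one, and of the 150 windows that close to a narrower region, 3 did (2.00%). Capitals mark the longest stretch present more than once in each of those 3 windows beside wide regions. All 3 belong to long non-coding RNA genes, as do the others of the 10 windows except those of Gm36079 and Dhx32.
Gm46074: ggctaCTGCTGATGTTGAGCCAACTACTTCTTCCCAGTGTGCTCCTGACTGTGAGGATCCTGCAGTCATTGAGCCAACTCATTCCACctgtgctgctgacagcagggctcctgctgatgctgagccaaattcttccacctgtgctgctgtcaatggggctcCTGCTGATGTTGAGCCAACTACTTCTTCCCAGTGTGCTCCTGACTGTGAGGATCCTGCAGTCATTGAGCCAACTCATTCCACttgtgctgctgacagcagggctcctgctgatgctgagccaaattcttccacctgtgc
Gm46287: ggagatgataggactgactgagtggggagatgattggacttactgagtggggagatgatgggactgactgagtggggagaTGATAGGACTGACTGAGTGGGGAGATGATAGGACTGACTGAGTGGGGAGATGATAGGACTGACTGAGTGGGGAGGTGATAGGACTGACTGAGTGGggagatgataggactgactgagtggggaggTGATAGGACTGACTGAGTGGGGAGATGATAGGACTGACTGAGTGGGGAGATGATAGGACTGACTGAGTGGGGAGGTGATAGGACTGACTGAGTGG
Gm34735: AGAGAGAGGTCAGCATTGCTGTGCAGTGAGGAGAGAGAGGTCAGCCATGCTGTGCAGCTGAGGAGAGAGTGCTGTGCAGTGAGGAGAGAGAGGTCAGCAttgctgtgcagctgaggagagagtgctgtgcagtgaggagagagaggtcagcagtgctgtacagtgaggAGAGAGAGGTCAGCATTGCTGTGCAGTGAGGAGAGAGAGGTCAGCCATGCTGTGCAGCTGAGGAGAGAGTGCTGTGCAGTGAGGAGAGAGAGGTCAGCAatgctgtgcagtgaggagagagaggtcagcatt

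The Gm46074 window (chr8:20649078-20649377, plus strand) lay wholly under a wide region of 2685 bp with a score of 694. Its 82 bases in capitals recur after 156 bases. The Gm46287 window (chr11:72765233-72765532, plus strand) was 470 bp from a region of 1097 bp with a score of 143 inside Ankfy1, and 95 bases recur after 125. The Gm34735 window (chr9:121270297-121270596, minus strand) was 472 bp from a region of 875 bp with a score of 54 inside Ulk4, and 99 bases recur after 168. The score is the authors' value for each region, and its scale is not stated. The other 7 windows that close to a wide region, among them those of Unc45bos, Gm33458, Gm52862 and the RNA helicase gene Dhx32, held no repeat of 30 bases or more. Near narrower regions the 3 windows with such a repeat of 50 bases belonged to Sp110, Gm52873 and Gm46124. The letters under the wide regions themselves, other than at Gm46074, were not analysed here.

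TGCACAC, the motif known for Zscan4, or its reverse complement GTGTGCA was found in 1444 of 32851 promoter windows (4.40%). It was absent from all 3 sequences above and present in 1 of the 10 windows within 1 kb of a wide region. Among windows within 10 kb of a wide region, 6 of 84 held it, against 58 of 1372 within 10 kb of a narrower region. These windows sample only the surroundings of wide regions and say nothing on the factor's binding.

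Width itself ran from 801 to 4244 bp among the wide regions, with a median of 958 bp (quartiles 877 and 1147), and from 219 to 799 bp among the narrower ones, with a median of 292 bp. The limit cuts through a continuous distribution. Just inside it were 2 regions of 801 bp, in the anoctamin gene Ano3 (score 66) and in no gene on chromosome 5 (score 106), and 3 of 802 bp in Gm39886, Pdzk1 and the ubiquitin ligase gene Nedd4 (scores 23, 58 and 83). Just outside it were a region of 799 bp in Actr2, a subunit of the actin-nucleating Arp complex (score 32), and 2 of 798 bp in no gene (scores 102 and 29). Wide regions held 0.453 Mb, which was 23.1% of the sequence covered on chromosomes 1 to 19.

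The score comes from the same signal as the width and is given as a description. Wide regions had a median score of 102 (quartiles 58 and 175, range 14 to 4515), and narrower regions one of 29 (quartiles 20 and 49, range 10 to 3658). Spearman's rho between width and score was 0.325 over the 4759 regions of this library, which share its depth. Of the 100 regions of highest score 60 were wide, and of the highest 10 regions 5 were. Width and score therefore overlapped without being the same order: when all regions were split by score into 4 groups of nearly equal size, 11 wide regions stood in the lowest group and 324 of 413 in the highest.

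**Figure D1:**
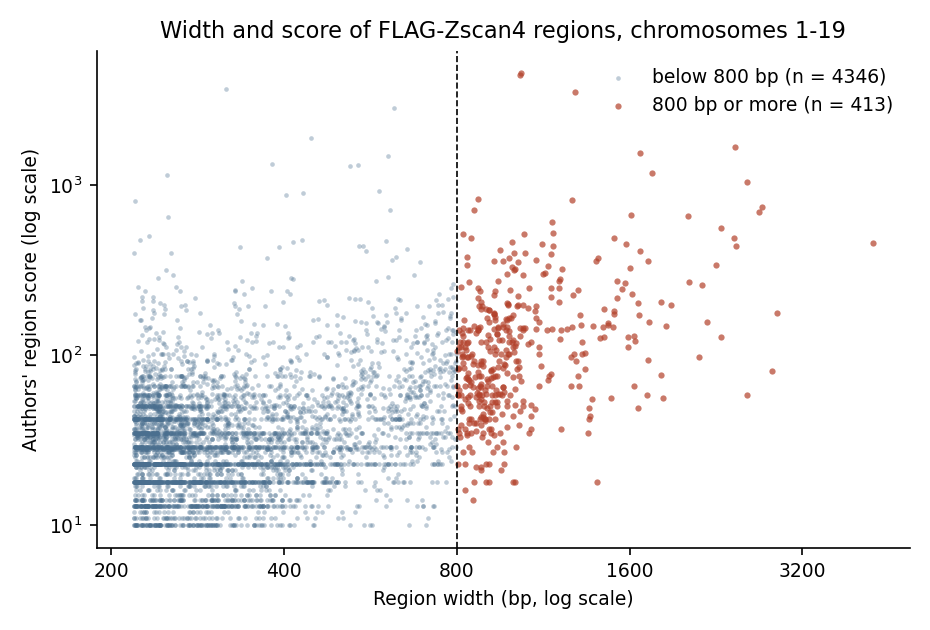
Each point is 1 region on chromosomes 1 to 19, with its width in bp (x axis, log scale) and the authors' score (y axis, log scale); the dashed line is the limit of 800 bp, red points are the 413 wide and blue points the 4346 narrower regions. The red points sit higher on average (median 102 against 29), and both sets span low and high scores.

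The 15 widest regions measured 2135 to 4244 bp, and 7 of them lay in 1 window of chromosome 8, from 20 to 21 Mb. The widest of all was there (chr8:20702647-20706890, 4244 bp, score 455), with Gm46074, printed above, as the nearest gene at 52.4 kb. The second, of 2891 bp, lay on chromosome 18 in no gene (chr18:13296570-13299460, score 176), with the small RNA gene Gm22251 at 88.2 kb and the histamine receptor gene Hrh4 as nearest coding gene at 274 kb. The third, of 2834 bp, was inside Tsnax, whose product pairs with translin (chr8:125020618-125023451, score 81). Fank1, a gene for an ankyrin repeat protein, held one of 2567 bp (chr7:133783755-133786321, score 58), and Dip2a held one of 2304 bp (chr10:76310347-76312650, score 555). Scores among these 15 ran from 58 to 1673 with a median of 438, and 3 of them were also among the 10 wide regions of highest score. Over the 413 wide regions Spearman's rho between width and score was 0.407.

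Further regions among the widest 15 lay outside coding genes. One of 2566 bp was in the pseudogene Gm20590 (chr13:74528491-74531056, score 1039). One of 2442 bp was in the long non-coding RNA gene 2700054A10Rik (chr17:13550680-13553121, score 1673), and one of 2258 bp was in Mup-ps15, named for the major urinary proteins and classed as a long non-coding RNA gene by RefSeq (chr4:61685860-61688117, score 339). One of 2724 bp was at the start of assembled chromosome 9 (chr9:3012220-3014943, score 740), 25.1 kb from Mir101c. Of the 15, 9 were in no gene and 3 in a coding gene.

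The 10 wide regions of highest score included 5 in no gene and 3 in coding genes. At the start of chromosome 9, the regions at chr9:3023548-3024581 and chr9:3019855-3021140 had scores of 4515 and 3513 and widths of 1034 and 1286 bp. A region 1.32 kb from Gm52862 had a score of 4410 and a width of 1029 bp. The coding genes were Asic4, of the acid-sensing ion channel family (1667 bp, score 1543), Mepe, which encodes a phosphoglycoprotein of bone matrix (1750 bp, score 1176), and Slc25a13, which encodes the mitochondrial aspartate-glutamate carrier citrin (1271 bp, score 814). A region of 871 bp with a score of 829 lay 5.41 kb from Aadac, the arylacetamide deacetylase gene. Smo, the transducer of Hedgehog signalling, stood just below these 10 with a region of 858 bp and a score of 711, and was chosen after its values were seen.

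Wide regions lay less often inside genes than narrower ones. Gene bodies held the midpoints of 175 of 413 wide regions (42.4%, Wilson interval 37.7 to 47.2%) and of 2345 of 4346 narrower regions (54.0%, 52.5 to 55.4%). The difference was -11.6 percentage points (Newcombe interval -16.5 to -6.55), larger than the counting error, and had the same sign in 16 of 19 autosomes. Protein-coding genes held 147 wide regions (35.6%) against 1891 narrower (43.5%), a difference of -7.92 points (-12.6 to -2.96), with the same sign on 12 of 19 autosomes. Long non-coding RNA genes, counted where no coding gene was present, held 21 (5.08%) against 349 (8.03%), a difference of -2.95 points (-4.88 to -0.269). Pseudogenes held 6 (1.45%) against 86 (1.98%), a difference whose interval included 0 (-1.44 to 1.20). With a limit of 1000 bp in place of 800 bp, the difference was -5.85 points for gene bodies (-13.4 to 1.83) and -2.18 for coding genes (-9.49 to 5.53), and both intervals included 0.

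Wide regions were also less frequent near the ends of coding genes. No wide region had its midpoint within 1 kb of either end of a coding gene, which allows a share of up to 0.726% (3 counts of 413; Wilson upper limit 0.922%), while 126 narrower regions did (2.90%, 2.44 to 3.44%). The difference was -2.90 points (-3.44 to -1.87). Within 5 kb there were 24 wide regions (5.81%) against 657 narrower (15.1%), a difference of -9.31 points (-11.5 to -6.42). Within 10 kb there were 65 (15.7%) against 1251 (28.8%), a difference of -13.0 points (-16.5 to -9.00). A wide region's midpoint lies farther from its edges, so edges were also used: 7 wide (1.69%) and 157 narrower regions (3.61%) had an edge within 1 kb of a coding gene end, a difference of -1.92 points (-2.97 to -0.0820). An end of a coding gene lay under 0 of 413 wide and 21 of 4346 narrower regions (0.483%), a difference whose interval included 0 (-0.738 to 0.453).

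At start sites of coding genes from the promoter table, which lacks chromosome 18, 0 of 397 wide regions lay within 1 kb and 50 of 4227 narrower regions did (1.18%). Within 10 kb of a start site were 36 (9.07%) and 646 (15.3%), a difference of -6.21 points (-8.90 to -2.82). A promoter window was overlapped by 1 of 397 wide regions, at Gm46074 (0.252%, 0.0445 to 1.41%), and by 38 of 4227 narrower regions (0.899%, 0.656 to 1.23%). These intervals overlap. The median distance to the nearest coding start site was 74.2 kb for wide and 43.0 kb for narrower regions.

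Counting the ends of genes of any class, 11 wide regions (2.66%) lay within 1 kb of one against 334 narrower (7.69%), a difference of -5.02 points (-6.46 to -2.84). All 11 were at the ends of non-coding genes or pseudogenes. The highest score was that beside Gm46074 (694), followed by that beside the long non-coding RNA gene 4930596I21Rik inside Dennd1b (1023 bp, score 352). Further long non-coding RNA genes were Gm46287 inside Ankfy1, given above, Gm33458 (808 bp, score 141), Unc45bos inside the myosin chaperone gene Unc45b (1064 bp, score 116), Gm36140 (816 bp, score 102) and Gm34735 inside Ulk4, given above. The pseudogenes were Gm11214 (934 bp, score 161), Gm5152 (1020 bp, score 83), Gm4325 (839 bp, score 42) and Gm6612 inside Adsl (896 bp, score 41), the last named only to complete the count.

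**Figure D2:**
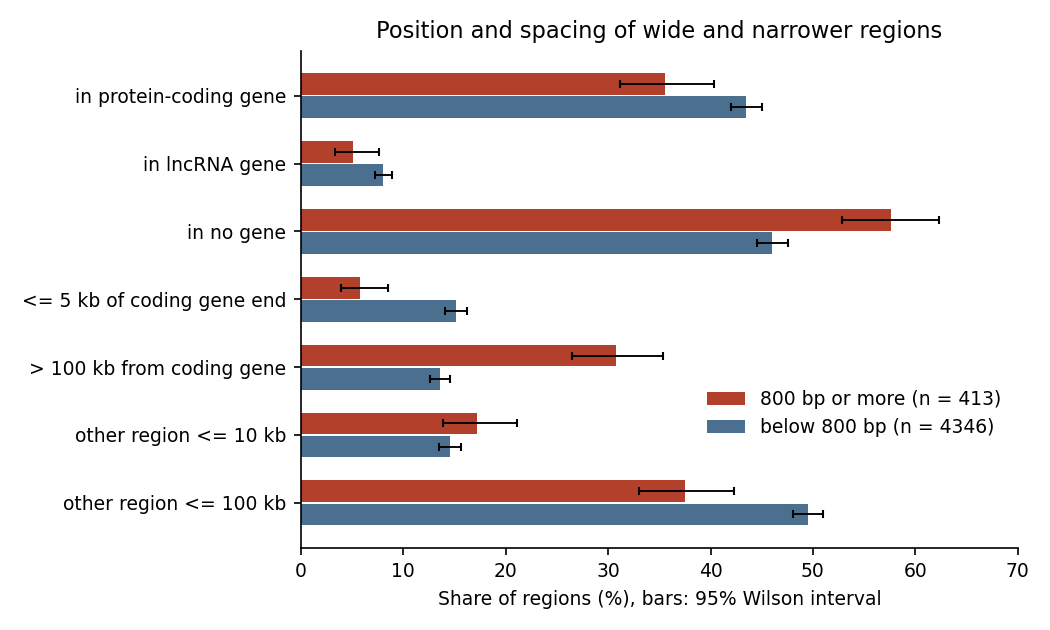
Bars give the share of wide (red, n = 413) and narrower (blue, n = 4346) regions in each position or spacing class, in percent, with 95% Wilson intervals. Wide regions are lower in coding genes (35.6% against 43.5%) and near their ends (5.81% against 15.1% within 5 kb), and higher beyond 100 kb from any coding gene (30.8% against 13.6%).

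Wide regions were found in gene-poor surroundings more often. More than 100 kb from any coding gene lay 127 wide (30.8%, 26.5 to 35.4%) and 589 narrower regions (13.6%, 12.6 to 14.6%), a difference of 17.2 points (12.8 to 21.9). Beyond 500 kb the shares were 6.30% and 2.62%, a difference of 3.67 points (1.64 to 6.48). The median number of coding genes within 500 kb on either side was 6 (quartiles 3 and 12) for wide and 9 (quartiles 5 and 15) for narrower regions, and it was lower for wide regions on 15 of 19 autosomes. Outside genes, the nearest gene of any class was at a median of 23.5 kb from a wide region and 10.5 kb from a narrower one. Regions of high score are over-represented among the wide, so the 4 score groups were compared one by one. The shares beyond 100 kb and 500 kb were not compared in this way. From the lowest to the highest group, the median number of coding genes within 500 kb was 6, 8, 8 and 6 for wide regions. For narrower regions it was 10, 9, 9 and 8. In the highest group (scores 53 to 4515) 43.2% of 324 wide and 51.7% of 866 narrower regions were in a gene. The share in coding genes, in the same order of groups, was 36.4%, 20%, 33.3% and 36.7% for wide regions (n = 11, 15, 63 and 324). Narrower regions had 43.3%, 44.9%, 45.2% and 39.8%. Averaged over the 4 groups, each weighted by its number of wide regions, the difference was -10.1 points for gene bodies and -5.34 for coding genes. The highest group, with 324 wide regions, therefore counts most, and its coding-gene shares were the closest of the 4 groups. No interval was computed within the groups or for these averages. Whether the difference in coding genes remains at like scores was therefore not tested.

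These shares moved with width below the limit as well. The share within 1 kb of a coding gene end was 3.96% at widths below 250 bp (n = 1263), 2.29% from 500 to 599 bp (n = 262), 1.38% from 600 to 699 bp (n = 217) and 0.595% from 700 to 799 bp (n = 168). The share in coding genes was 45.5% below 250 bp, 42.4% from 500 to 599 bp, 30.4% from 600 to 699 bp and 35.1% from 700 to 799 bp. Among wide regions it was 32.1% from 800 to 999 bp (n = 246), 43.2% from 1000 to below 1500 bp (n = 118) and 34.7% from 1500 bp (n = 49), with intervals that overlap.

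**Figure D3:**
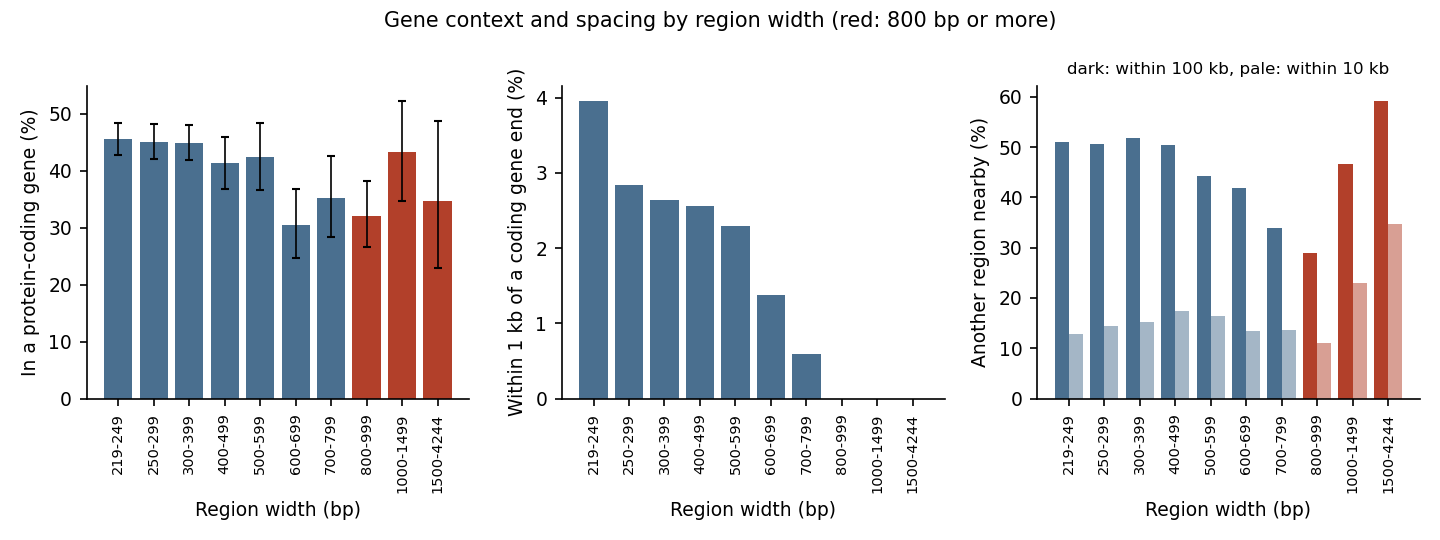
The panels give, by region width in bp (x axis), the percent of regions in a coding gene (left, 95% Wilson intervals), the percent with a midpoint within 1 kb of a coding gene end (middle) and the percent with another region within 100 kb (right, dark) or 10 kb (right, pale). Red bars are widths of 800 bp or more: the middle panel reaches 0 there, and the right panel has its lowest dark bar from 800 to 999 bp (28.9%) and its highest from 1500 bp (59.2%).

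The coding genes that held wide regions numbered 138, of which 135 held 1 and 3 held more. With a host counted once for each region it held, the median span was 105 kb for wide regions (quartiles 43.1 and 322). For narrower regions it was 94.6 kb (quartiles 42.5 and 217). Ulk4 enters 8 times among the 147 wide regions in coding genes, and the upper quartile of 322 kb is its own span. The 118 wide regions in hosts whose strand is in the promoter table, 8 of them in Ulk4, lay at a median of 51.2% of the way along the gene, against 50.1% for 1460 narrower regions. Of the 138 hosts, 92 held no narrower region and 23 spanned 500 kb or more. The longest were chosen by span after the values were seen: Lsamp, a neuronal adhesion gene of 2197 kb (872 bp, score 140), Lrp1b, of the LDL receptor family, of 2058 kb (883 bp, score 22), Dlg2, which encodes a postsynaptic scaffold, of 1973 kb (1099 bp, score 165) and the axon guidance receptor gene Robo2 of 1555 kb (1727 bp, score 156). A long gene offers more room for a region, and no count was adjusted for span.

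Ulk4, which encodes a member of the Unc-51-like kinase family, held 8 wide and 4 narrower regions over 322 kb (chr9:120964454-121286159, minus strand). The wide ones were 875 to 1725 bp with scores from 35 to 519 and a median of 224.5. A run of 9 regions, 5 of them wide, filled 9.12 kb of a 15.6 kb stretch (chr9:121223409-121238961), with gaps of 227 to 1818 bp between neighbours. The tallest of the run were at 1175 bp (score 519), 1665 bp (411) and 1725 bp (357), while 2 wide ones there had scores of 35 and 75. Outside the run lay 3 wide regions, at chr9:121130991-121131942 (score 413), chr9:121147429-121148376 (score 92) and chr9:121268951-121269825 (score 54), the last beside the repeat of Gm34735 printed above. The other coding genes with more than 1 wide region were Klhdc4, a kelch-domain gene, with regions of 887 and 971 bp (scores 43 and 87), and 4930444P10Rik with regions of 930 and 1361 bp (scores 111 and 42).

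**Figure D4:**
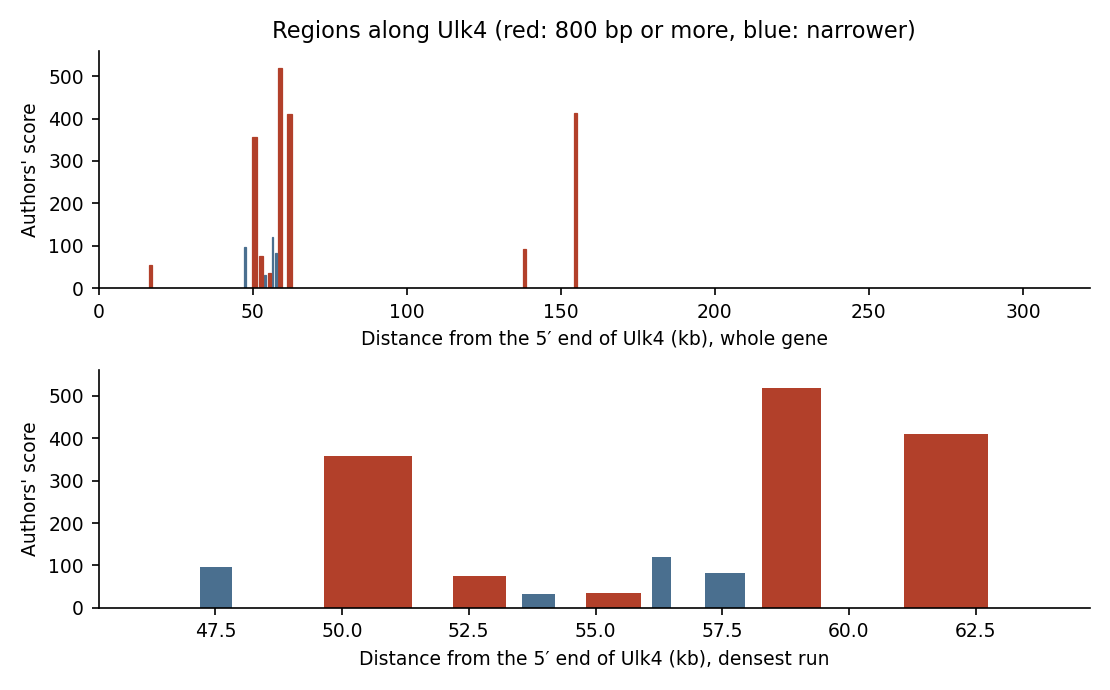
Bars show the 12 regions in Ulk4 at their distance from the 5′ end of the gene in kb (x axis), with bar width equal to region width and height equal to the authors' score; red bars are 800 bp or more and blue bars narrower. The upper panel spans the gene and the lower one the run of 9 regions, where 5 are red.

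Spacing had 2 sides. Close by, 71 wide regions (17.2%) and 631 narrower ones (14.5%) had another region within 10 kb, a difference of 2.67 points whose interval included 0 (-0.830 to 6.74). With a limit of 1000 bp it was 12.02 points (5.83 to 19.2), which leaves out 0, and averaged over the 4 score groups it was -2.13. Within 100 kb wide regions had company less often, 155 (37.5%) against 2151 (49.5%), a difference of -12.0 points (-16.7 to -6.97). The median distance to the nearest region was 177 kb for wide and 102 kb for narrower regions. No other region within 500 kb was seen for 88 wide (21.3%) and 554 narrower regions (12.7%), a difference of 8.56 points (4.74 to 12.9). Measured between edges, which a wide region brings nearer, the medians were 176 and 102 kb.

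This spacing differed by width among the wide regions themselves. From 800 to 999 bp, 11.0% had a region within 10 kb and 28.9% within 100 kb. From 1500 bp, 17 of 49 had one within 10 kb (34.7%, 22.9 to 48.7%) and 29 within 100 kb (59.2%, 45.2 to 71.8%). Of these 49, 12 lay in Ulk4, in the window of chromosome 8 from 20 to 21 Mb or at the start of chromosome 9. Without those 3 loci, 6 of 37 had one within 10 kb (16.2%, 7.65 to 31.1%) and 17 within 100 kb (45.9%, 31.0 to 61.6%), against 25 and 66 of 241 from 800 to 999 bp (10.4% and 27.4%). From 1000 to below 1500 bp, 27 of 118 had one within 10 kb (22.9%), and without those loci 21 of 112 did (18.8%). The difference of 12.02 points at a limit of 1000 bp was not recomputed without them. Another wide region lay within 10 kb of 30 wide (7.26%) and of 62 narrower regions (1.43%), a difference of 5.84 points (3.67 to 8.77). Those 30 formed 12 groups, of which 8 were pairs. Without the same 3 loci, which together held 23 wide regions, the counts were 14 of 390 (3.59%) and 47 of 4275 (1.10%). The share of wide regions with any region within 10 kb was then 13.3%, against 13.2% for narrower ones.

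In the window of chromosome 8 from 20 to 21 Mb, 12 of 76 regions were wide, with a median width of 2160.5 bp and scores from 98 to 694 (median 310.5). The 64 narrower regions there had a median width of 290.5 bp and a median score of 90. Groups of 3 wide regions lay at chr8:20677342-20685284 (widths 2135 to 2447 bp) and chr8:20697654-20706890 (837 to 4244 bp). At the start of chromosome 9, 3 of 6 regions were wide (1034 to 2724 bp, scores 740 to 4515). The 3 narrower regions there had a median width of 432 bp and a median score of 1148, so high scores there were not limited to wide regions. Pairs outside these loci included chr2:80811860-80816602 near the pseudogene Gm4735 (1050 and 2114 bp) and chr10:118014502-118016761 in Gm32663 (883 and 1030 bp).

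Along the chromosomes, wide regions occurred at 0.172 per Mb (exact Poisson interval 0.156 to 0.189), between 0.0343 per Mb on chromosome 19 and 0.293 per Mb on chromosome 8. As a share of each chromosome's regions they ranged from 1.92% on chromosome 19 (2 of 104, 0.529 to 6.74%) to 14.5% on chromosome 3 (37 of 256, 10.7 to 19.3%). Chromosome 9 followed with 14.3% (35 of 245, 10.5 to 19.2%) and chromosome 18 with 11.9% (16 of 135, 7.43 to 18.4%). The other 15 autosomes lay between 6.69% and 9.90%. Chromosomes 3 and 9 were the ones whose interval lay wholly above the 8.68% of all autosomes, and chromosome 19 the one wholly below it. Without Ulk4 and its start, chromosome 9 had 24 of 227 (10.6%, 7.21 to 15.2%), an interval that includes 8.68%. Chromosomes 8 and 1, which carry the most regions, had shares of 8.03% and 7.16%. The window from 20 to 21 Mb held 12 of the 37 wide regions of chromosome 8, and its rate of 0.293 per Mb includes them. Without that window chromosome 8 had 25 of 385 (6.49%, 4.44 to 9.41%).

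**Figure D5:**
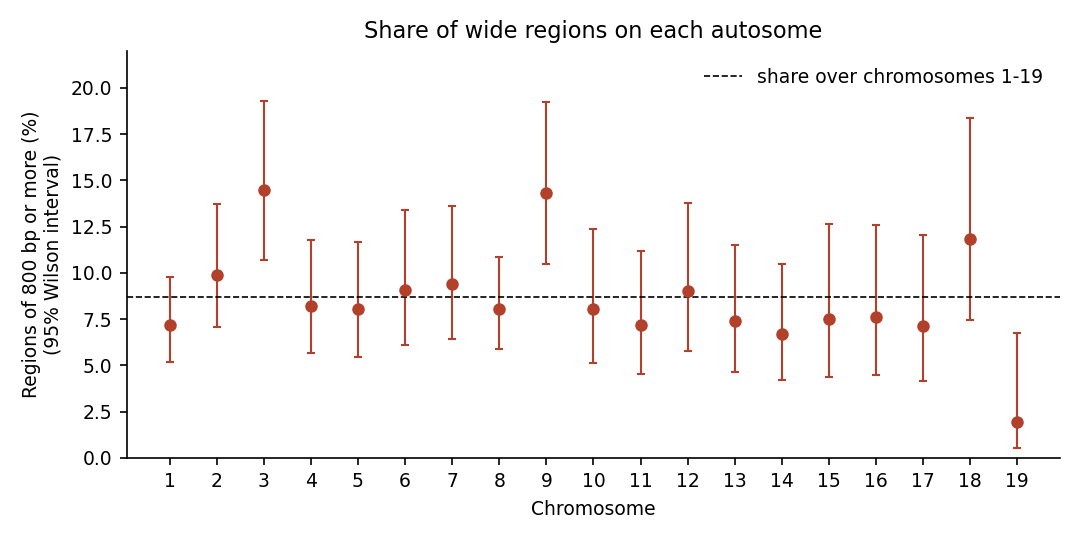
Points give the percent of each autosome's regions that are 800 bp or more, with 95% Wilson intervals; the dashed line is the share over chromosomes 1 to 19 (8.68%). Chromosomes 3 and 9 lie above the line and chromosome 19 below it with their whole intervals.

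Position from the centromere to the telomere side was compared at both ends of the assembled chromosomes. The first 5 Mb of assembled sequence held 20 wide (4.84%) and 237 narrower regions (5.45%), a difference of -0.611 points (-2.44 to 1.99). The last 5 Mb held 21 (5.08%) and 170 (3.91%), a difference of 1.17 points (-0.669 to 3.79). Both intervals include 0 at the limit of 800 bp. For the last 5 Mb the result depended on the choices made: the difference was 1.50 points (0.0116 to 3.36) with a limit of 600 bp, 3.91 points (0.673 to 9.01) with 1000 bp, and -0.750 points (-2.28 to 1.61) without windows of 1 Mb that held 10 or more regions. With each chromosome cut into 10 equal lengths from the centromere side, the sixth and the eighth held the fewest wide regions (7.99% of them each) and the second held the most (12.8%), where 11.5% of narrower regions lay.

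Of all 20556 coding genes on chromosomes 1 to 19, 192 (0.934%) had a wide region in the body or within 10 kb, and 2380 (11.6%) had a narrower one. Genes of the 2-cell-like state, the transcription programme in which Zscan4 is active, had 1 of 41: Obox6, an oocyte-specific homeobox gene (chr7:15837309-15838155, 847 bp, score 69). Of these 41 genes, 5 had a narrower region. Naive pluripotency genes had 0 of 27, although 7 had a narrower region. Genes of telomere maintenance had 0 of 26 (5 with a narrower region), and genes of DNA and histone methylation had 0 of 33 (1 with a narrower region). Histone acetylation genes had 1 of 24 (4 with a narrower region), the class IIa deacetylase gene Hdac9 (chr12:34139459-34140552, 1094 bp, score 182). Synaptic adhesion and scaffold genes, with a median span of 974 kb, had 3 of 33: Dlg2 and Lsamp, given above, and the receptor phosphatase gene Ptprt (1044 bp, score 54). Glutamate receptor genes had 0 of 25 (6 with a narrower region) and housekeeping genes 0 of 16 (2 with a narrower region). The lists are short against a background of 0.934%. The synaptic share was 9.09%, and 12 of those 33 genes had a narrower region (36.4%, against 11.6% of all coding genes). The synaptic genes are much longer than the median coding gene (17.6 kb), and no count was adjusted for span. Whether any list differs from the background was not tested.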

How the data were processed

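One FLAG immunoprecipitation gave 1 list. The authors deposited it with coordinates in bp and a whole-number score per region, whose scale is not stated. Cutadapt, Bowtie2, MACS2, deepTools and mm10 are named in the submitters' processing notes; versions, calling threshold and control were not given in the sources used here. Region names run to 5005, and 32 of these names carry no region.

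Midpoints were placed on 46710 of the 49997 RefSeq genes in the GRCm38.p6 table, those with a place on chromosomes 1 to 19 beyond the first 3 Mb. A region in several genes took the class coding, long non-coding RNA, pseudogene or other, in that order, and the shortest gene as host. Shares carry 95% Wilson intervals, differences Newcombe intervals and rates exact Poisson intervals (Python 3.11.15, statsmodels 0.14.6, scipy 1.17.1); regions were not resampled. Class and distance functions were tested on simulated regions. The rule named genes at the 15 widest and the 10 highest-scoring wide regions, the 10 highest at gene ends (all 11 are given), coding genes with more than 1 wide region, list members with one and regions at the limit. Members and 8 lists were chosen with earlier results of these data known. Alternatives were other width limits, 4 score groups, merging within 1 kb, dense windows left out (1 Mb with 10 or more regions), and other distances.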

Additional observations from a re-analysis of the deposited data

Results flagged for a closer look

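Regions outside chromosomes 1 to 19 entered no comparison, and the width limit was applied to them alone. On the X chromosome 40 of 155 regions measured 800 bp or more (25.8%, 95% Wilson interval 19.6 to 33.2%), with a median width of 541 bp over all its regions, against 8.68% (7.91 to 9.51%) and 306 bp on chromosomes 1 to 19. On the Y chromosome 3 of 13 did (23.1%, 8.18 to 50.3%). On unplaced scaffolds 15 of 40 did (37.5%, 24.2 to 53.0%), up to 3836 bp, and those 15 had a median score of 2021. On the mitochondrial genome none of 6 did. They stand apart as signal outside the main measurement, with no control sample in the list, and the cause was not tested.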

How the results depend on the processing

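Of 62 alternative values over 7 results, 49 stayed within the interval of the value reported and 13 did not; the differences for gene bodies, coding genes and gene ends did not change sign, while those for neighbours and for both chromosome ends did. The first 3 ranged from -12.6 to -5.85 points in gene bodies, from -10.5 to -2.18 in coding genes and from -16.0 to -1.92 at gene ends. With a limit of 1000 bp the differences were -5.85 points for gene bodies, -2.18 for coding genes, 12.02 (5.83 to 19.2) for another region within 10 kb, 2.47 for the first 5 Mb and 3.91 (0.673 to 9.01) for the last 5 Mb, and the median score was 147; with 600 bp it was 71. The 12.02 points include Ulk4, the chromosome 8 window and the start of chromosome 9, and were not recomputed without them. Averages over the 4 score groups, weighted by their wide regions, carry no interval. The coding-gene difference was -5.34 points in them. For another region within 10 kb the difference was -2.13 points, and for the first 5 Mb it was -3.38. Without dense windows that for the last 5 Mb was -0.750. A 5 kb window at gene ends gave -16.0 points, edges within 1 kb of a coding gene end -1.92, and neighbours within 100 kb -12.0. Edges at coding gene ends, averages within chromosomes, leaving out chromosomes 1 and 8 and leaving out 3 loci were added after the data were seen. No paired analysis was possible because each group has 1 sample. Depth is unknown, so weak or broken stretches of enrichment may be missing from the list.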
